A study of Homo sapiens with 12 samples.

Results

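Densely clustered N6-methyladenosine (m6A) sites were taken from the deposited site lists of human HEK293E cells, a line derived from embryonic kidney. A site counted as densely clustered, or dense, when at least 4 other sites of the same list lay within 100 nt of it on either side on the same chromosome and strand. The members were thus chosen by the listed positions of the sites. The rule held for 6149 of 96671 sites (6.36%) in the list for insulin alone and for 2227 of 63578 sites (3.50%) in the list for insulin with Torin1, together 8376 of 160249. The cells of all groups had been starved of serum overnight and then received 200 nM insulin for 30 h. One condition had insulin alone, and the other was first treated with the mTOR kinase inhibitor Torin1 at 250 nM. Each condition had 3 libraries from m6A individual-nucleotide-resolution crosslinking and immunoprecipitation (miCLIP) and 3 libraries of the poly(A) RNA that served as input. There was no miCLIP control without antibody and no group without insulin among the 12 samples. The labels speak of biological replicates but name no separate cultures, so the p-values below measure only how far these samples differ from each other, which may be technical.

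m6A is the most frequent internal modification of mRNA. It is laid down during transcription by a complex whose catalytic core is METTL3 and METTL14, with adaptors such as WTAP, RBM15 and RBM15B, in the consensus DRACH, where D excludes C, R stands for a purine and H excludes G. It is typically enriched near stop codons and in long exons, where several sites can lie close together, and YTH-domain proteins read it. In miCLIP an antibody is crosslinked to the modified base, and the substitutions that the crosslink leaves in the reads mark the adenosine.

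The closest groups of sites show how the clusters are built, and the stretches below are the shortest that hold the most dense sites of their cluster. They are written 5′ to 3′ on the strand of the RNA as DNA letters in the GRCh38 build. Capitals mark the 5-base motif that the files give around each dense site, with the A listed as the site in its middle, and n marks bases that the files do not give. A listed site can rest on 1 substituted read, as 2835 of 6149 dense insulin sites and 861 of 2227 dense Torin1 sites did. FBXL19 had the cluster with the most dense sites, at chr16:30948077-30948102 on the plus strand, WDR6 the most dense sites in 30 bases (chr3:49015474-49015500, plus), and NSD1 an unbroken chain of motifs (chr5:177295685-177295697, plus). HSPA13 (chr21:14374035-14374061, minus), EEF2 (chr19:3981362-3981386, minus) and XIST (chrX:73827050-73827069, minus) are from the Torin1 list, and RNR2 (chrM:2354-2376, plus) is a ribosomal RNA of the mitochondrion.
FBXL19, insulin list: GGACTGGACCnnnnnGGACTnAGACC
FBXL19, Torin1 list: GGACTGGACCnnnnnnnnnnnAGACC
WDR6, insulin list: TGACAAGACAGAACTnnnTAACAAACA
NSD1, insulin list: AGACAGACAGACT
RNR2, insulin list: AAACAnnGAACTGACAnnTAACA
HSPA13, Torin1 list: TGACAnnGAACTnnnnnnAGACAAACT
EEF2, Torin1 list: AAACTGGACAnnnnGGACAnGGACA
XIST, Torin1 list: AGACTnnAGACCnnnGGACT
The WDR6 stretch of 27 bases held 5 dense sites with 75 to 106 reads each. In NSD1 each motif shared its last A with the first base of the next one. In FBXL19 the same stretch of 26 bases held 4 dense sites in the insulin list and 3 in the Torin1 list, where the third site was not listed.

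In the insulin list 2 groups of 5 dense sites lay in RefSeq promoter windows (250 bases before to 50 bases after a gene's start, GRCh38.p14). One is in OTUD5 at chrX:48957791-48957857 on the minus strand, with 11 to 62 reads per site, sites from 3 replicates and 1 position also in the Torin1 list; its bases are not printed, since its place among exons and UTRs was not used here. The other lies at chr19:32691591-32691737 on the minus strand, upstream of NUDT19 and within NUDT19-DT, the divergent long noncoding RNA that leaves the same promoter in the opposite direction. Capitals again mark the motifs of the dense sites, and lower case the bases between them.
NUDT19-DT, insulin list: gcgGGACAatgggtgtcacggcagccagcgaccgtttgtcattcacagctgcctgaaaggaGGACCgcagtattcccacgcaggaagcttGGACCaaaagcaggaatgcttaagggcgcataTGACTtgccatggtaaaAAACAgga
The 147 bases held 5 matches to DRACH on the strand of the sites, and all 5 were listed as dense sites, with 34 to 54 reads and 1 to 6 substituted reads each. They came from 2 replicates, and 0 of them was in the Torin1 list. In all, 27 dense insulin sites and 7 dense Torin1 sites lay in such windows.

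The rule cut a gradual distribution. In the insulin list 72.1% of the sites had 0 or 1 other site within 100 nt, and in the Torin1 list 79.1%. Just outside the rule, 7276 insulin sites and 3502 Torin1 sites had 3 others, and just inside it 3521 and 1381 had 4. The most crowded sites had 10 others in the insulin list (9 sites) and 9 in the Torin1 list (10 sites). Reads over a site rose with the number of others: the median was 4 reads at 0 others, 24 at 3 and 30 at 4 in the insulin list, and 6, 55 and 71 in the Torin1 list. At 3 and at 4 others the share of motifs starting GGAC was 28.7% and 28.9% in the insulin list and 31.6% and 30.6% in the Torin1 list. The share also found in the other list was 45.5% and 48.2%, and 68.4% and 70.7%, so sites on either side of the threshold had like values.

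**Figure D1:**
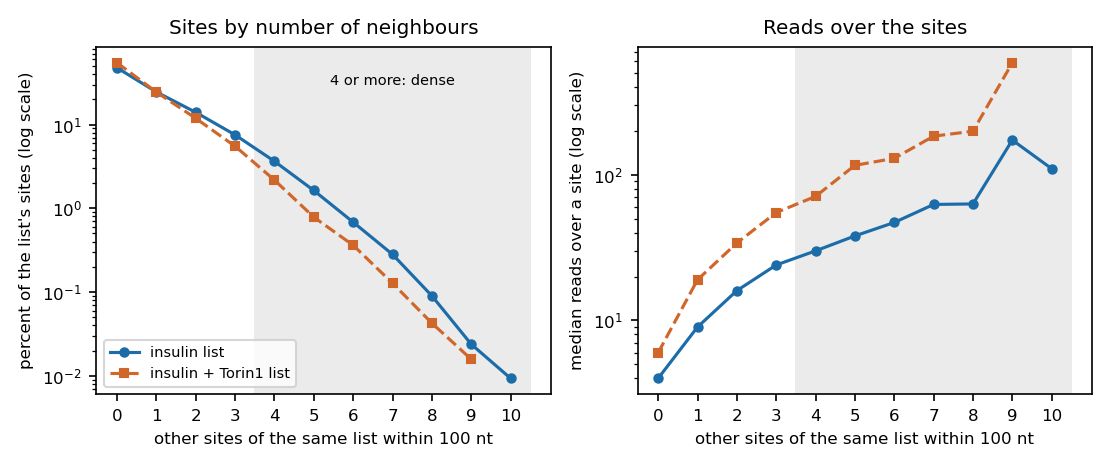
Left, percent of each list's sites (log scale) against the number of other sites of that list within 100 nt; right, the median number of reads over those sites (log scale). The shaded range is the dense class, which begins at 4 others, and the median reads rise from 4 at 0 others to 30 at 4 others in the insulin list and from 6 to 71 in the Torin1 list.

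Each position was listed under 1 replicate only, and the replicates contributed unequally. In the insulin list replicate 1 held 4018 dense sites of 50656 (7.93%), replicate 2 held 1899 of 39670 (4.79%) and replicate 3 held 232 of 6345 (3.66%). In the Torin1 list replicate 1 held 2072 of 56298 (3.68%), replicate 2 held 32 of 1552 (2.06%) and replicate 3 held 123 of 5728 (2.15%). The larger number of dense sites with insulin alone coincided with a second large library on that side. When the rule was applied to the sites listed under replicate 1 alone, the order of the lists turned: 1490 insulin sites and 1719 Torin1 sites were dense, in 433 and 502 clusters. Without insulin replicate 1 the dense insulin sites fell to 148, without insulin replicate 2 to 1801, and without Torin1 replicate 1 the Torin1 list had 0 dense sites. The difference in number between the lists is given as a description of these lists and was not tested.

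Dense sites at most 100 nt apart were joined into clusters, which gave 1608 clusters in the insulin list and 640 in the Torin1 list. An insulin cluster held a median of 4 dense sites (at most 18) over a median span of 77 nt (at most 458 nt). A Torin1 cluster held a median of 3 dense sites (at most 13) over 62.5 nt (at most 404 nt). Clusters with only 1 dense site numbered 407 and 172, those with 5 or more 644 and 223, and those with 10 or more 56 and 13. Of the 1201 insulin clusters with more than 1 dense site, 286 drew these sites from 1 replicate. Of the 468 such Torin1 clusters, 349 did.

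Neighbouring dense sites were close. The median gap was 21 nt in the insulin list (quartiles 11 and 37 nt, 4541 gaps) and 20 nt in the Torin1 list (quartiles 10 and 36 nt, 1587 gaps), against 37 and 38 nt for neighbours at most 100 nt apart among all sites, a difference that the rule itself favours. The smallest gap was 4 nt in both lists, the closest that DRACH allows, as in the NSD1 chain above. Gaps of 4 nt made up 3.63% and 3.59% of the gaps between dense sites and 1.68% and 1.53% of those among all sites. Gaps of at most 10 nt made up 23.7% and 26.4% against 12.2% and 11.7%.

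FBXL19, which encodes an F-box protein that binds CpG islands, held the cluster with the most dense sites. Its 18 dense insulin sites lay at chr16:30948008-30948413, from 370 to 775 nt before the annotated end of the gene, with 37 to 334 reads each. The Torin1 list had 13 dense sites at chr16:30948008-30948344, with 10 to 589 reads, and all 13 were dense insulin positions. Within the insulin cluster the substituted fraction ran from 0.521% (1 of 192 reads at position 30948100) to 10.5% (10 of 95 reads at position 30948413). In the insulin list 16 of the 18 sites were listed under replicate 1 and 2 under replicate 2, and in the Torin1 list 10, 1 and 2 under replicates 1, 2 and 3.

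The other large insulin clusters were in MDM2, the gene of the ubiquitin ligase that acts on p53 (16 dense sites, chr12:68842068-68842450), NSD1, a histone H3 lysine methyltransferase gene (16, chr5:177295294-177295695), RNR2 (15, chrM:1676-2091) and DIDO1 (15, chr20:62879318-62879621). They differed in the Torin1 list. The MDM2 cluster held 7 dense positions there and the RNR2 cluster 8, whereas the NSD1 cluster held 6 listed positions and the DIDO1 cluster 5, of which 0 were dense in either cluster. Elsewhere in the gene NSD1 had 12 dense Torin1 sites in 2 clusters, while DIDO1 had 0 dense Torin1 sites. In the Torin1 list TUBB4B, a beta-tubulin gene, had 13 dense sites at chr9:137242601-137242985, HSPA13, an HSP70 family gene, 13 at chr21:14373929-14374260, XIST, the noncoding RNA of X inactivation, 11 at chrX:73826973-73827173, and the mitochondrial cytochrome b gene CYTB 11 at chrM:15467-15766. The positions most often dense in both lists were those of FBXL19 (13), TUBB4B (12), XIST (11), EME2, a partner of the MUS81 nuclease (11), and a second RNR2 cluster (10, chrM:2239-2374). Tubulin, elongation factor and mitochondrial sequences have near-identical copies elsewhere in the genome, and how reads were divided between copies is not given in the sources used here.

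In the XIST cluster the 11 positions were the same in both lists, at 248 to 907 reads in the insulin list and 1694 to 5906 in the Torin1 list. The reads over the cluster were 5587 and 36385. All 11 sites were listed under replicate 1 in each list. These reads were not scaled to the depth of the libraries. Over all dense sites of replicate 1 the median was 37 reads in the insulin list and 97 in the Torin1 list. No input value was matched for XIST, so a difference in its RNA or its m6A was not tested. The substituted fraction in this cluster ran from 0.224% (1 of 446 reads) to 5.59% in the insulin list. In the Torin1 list it ran from 0.0590% (1 of 1694 reads) to 2.64%. In the second RNR2 cluster it was as low as 0.154% (1 of 650 reads) in the insulin list. Whether sites with so few substituted reads carry m6A was not tested.

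**Figure D2:**
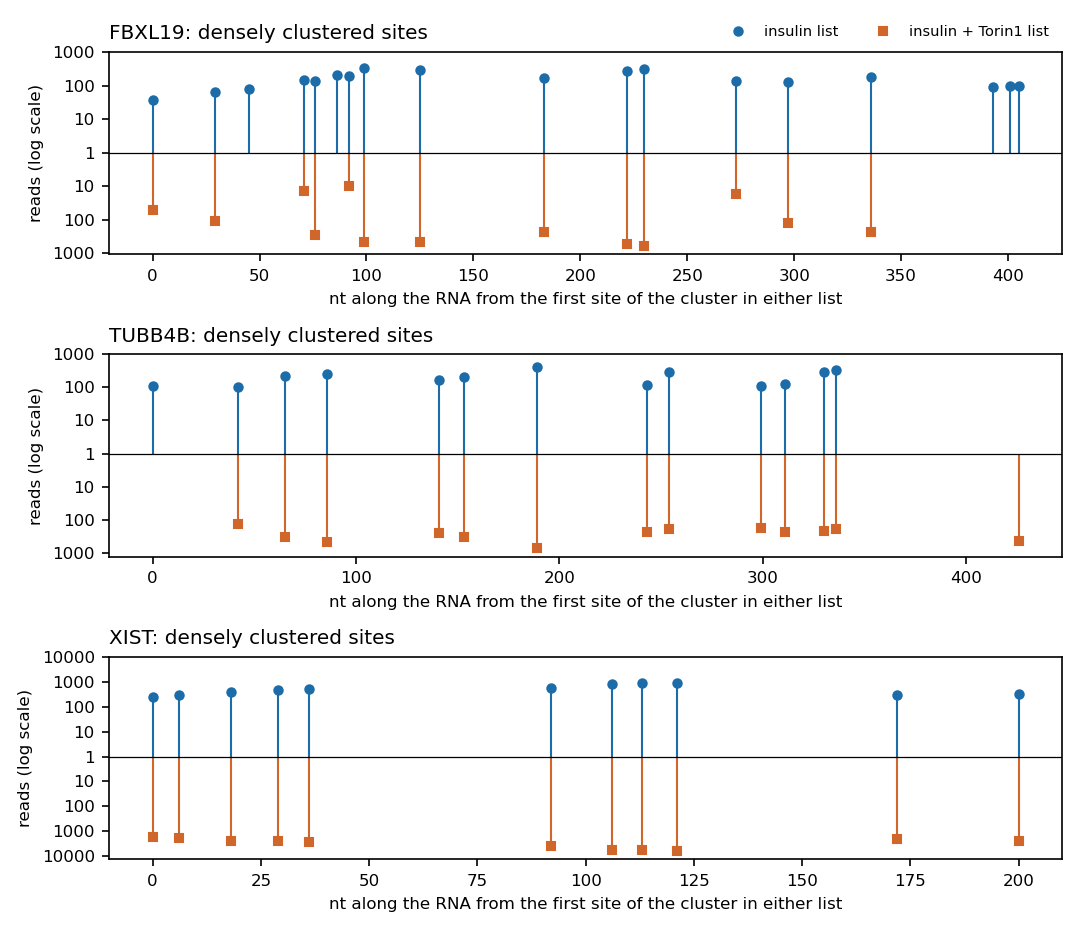
Dense sites of the clusters in FBXL19, TUBB4B and XIST; the horizontal axis is distance along the RNA in nt from the cluster's first site, and the vertical axis the reads over each site (log scale), insulin upwards and Torin1 downwards. In FBXL19 13 positions, in TUBB4B 12 and in XIST 11 are dense in both lists.

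Dense sites of one list were often listed in the other. Of the dense insulin sites 50.1% (3083 of 6149; 95% Wilson interval 48.9 to 51.4) were also Torin1 sites, against 26.8% of the other insulin sites. Of the dense Torin1 sites 72.9% (1623 of 2227; 71.0 to 74.7) were also insulin sites, against 42.0% of the others. These intervals cover counting error only, and reads need not be independent molecules. The positions dense in both lists numbered 1112, which is 18.1% of the dense insulin sites and 49.9% of the dense Torin1 sites. By clusters, 368 insulin clusters (22.9%) had a dense Torin1 site within 100 nt and 369 Torin1 clusters (57.7%) had a dense insulin site; for clusters of 10 or more dense sites the shares were 73.2% (41 of 56) and 92.3% (12 of 13). No site of the other list at all lay within 100 nt of 89 insulin clusters (5.53%) and 6 Torin1 clusters (0.938%).

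The number of sites that the other list placed around a site rose with the number in its own list. Around insulin sites with 0, 1, 2, 3 and 4 others lay a mean of 0.339, 0.887, 1.49, 2.08 and 2.69 Torin1 sites within 100 nt, and around those with 5 or more 3.70. Around Torin1 sites the means were 0.685, 1.66, 2.52, 3.39 and 4.26 insulin sites, and 5.66 at 5 or more. The rise was also there when the same position was left out: 0.160 to 3.17 and 0.375 to 4.89 from the lowest to the highest class. Within the insulin condition, sites of replicate 1 that were dense by replicate 1 alone had a mean of 0.714 replicate 2 sites within 100 nt, against 0.390 for the other replicate 1 sites. In the other direction the 94 sites dense by replicate 2 alone had a mean of 0.649 replicate 1 sites, against 0.510 for the other replicate 2 sites, but below the 0.788, 1.02 and 0.992 of replicate 2 sites with 1, 2 and 3 others. Because a position was listed under 1 replicate only, the sites counted are at other positions.

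The libraries were then compared as pairs of dense and other sites, with an exact two-sided permutation test that flips the sign of the difference over the 6 miCLIP libraries (smallest possible p 0.03125) and Benjamini-Hochberg adjustment over 5 measures. Density was set on the pooled list of each condition, so the 6 libraries are not independent units. Without Torin1 replicate 1 the Torin1 list had 0 dense sites, so those of replicates 2 and 3 were dense only through replicate 1 neighbours. A position in both lists also counts in a library of each. The test treats the libraries as independent, so its p-values for the 5 measures serve as description only. The share of sites also in the other list was higher among dense sites in 6 of 6 libraries. In insulin replicates 1, 2 and 3 it was 56.0%, 39.5% and 34.5% of dense sites against 33.1%, 20.5% and 18.2% of the others. In Torin1 replicates 1, 2 and 3 it was 74.0%, 59.4% and 57.7% against 43.2%, 33.2% and 33.0%. The mean difference was 23.3 ± 5.20 percentage points (SD, n = 6, exact permutation, adjusted p = 0.0391). Without Torin1 replicate 1, the insulin libraries alone could be compared and the difference was 1.09 points, since that library held most of the Torin1 list.

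Reads over the sites moved with this result. Dense sites had a median of 37, 35 and 6 reads in insulin replicates 1, 2 and 3 and 97, 5 and 5 in the Torin1 replicates, against 8, 7, 2, 14, 2 and 2 for the other sites. Among sites of like read number the difference was under 2 points from 30 reads upwards and larger below. At 30 to 99 reads 55.9% of dense (54.0 to 57.7) and 54.6% of other insulin sites were also in the Torin1 list, and at 100 or more reads 73.2% and 73.9%. In the Torin1 list the shares were 67.6% and 69.0% at 30 to 99 reads and 83.3% and 81.7% at 100 or more. At 10 to 29 reads they were 39.9% (37.8 to 42.0) against 37.2% in the insulin list and 55.7% (48.6 to 62.5) against 46.5% in the Torin1 list. At 1 to 9 reads dense sites recurred more often, 27.4% against 15.8% in the insulin list and 51.6% against 22.0% in the Torin1 list, where the class held 475 and 122 dense sites.

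**Figure D3:**
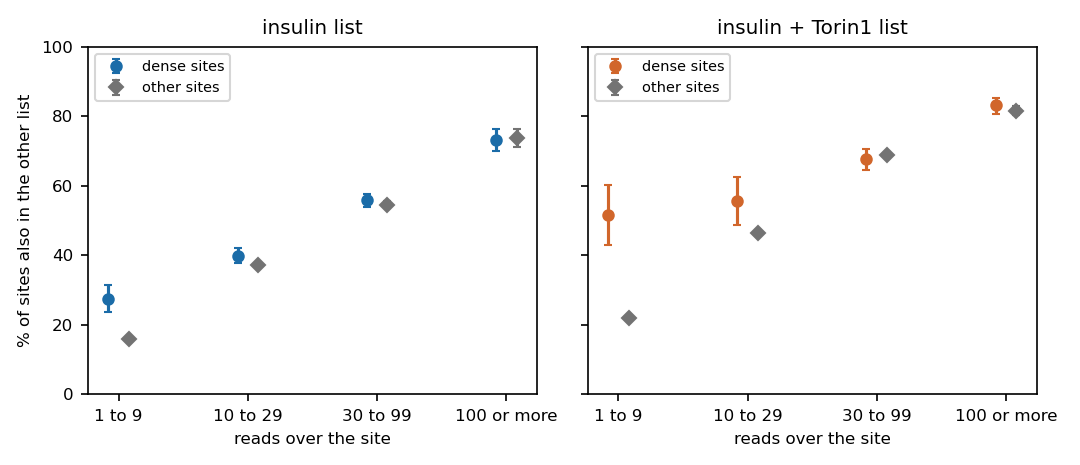
Percent of sites also listed in the other condition, by the number of reads over the site, for dense and other sites (bars, 95% Wilson intervals, counting error only). At 30 or more reads dense and other sites differ by less than 2 points in both lists, while at 1 to 9 reads dense sites stand higher, 27.4% against 15.8% and 51.6% against 22.0%.

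The fraction of reads substituted at a site was lower among dense sites in 6 of 6 libraries. The medians for dense sites were 0.0571, 0.0465 and 0.200 in insulin replicates 1, 2 and 3 and 0.0244, 0.330 and 0.250 in the Torin1 replicates, and for the other sites 0.190, 0.200, 0.667, 0.110, 1 and 1. The mean difference was -0.376 ± 0.292 (SD, n = 6, exact permutation, adjusted p = 0.0391). The number of substituted reads went the other way: the share of sites with 3 or more was higher among dense sites in 6 of 6 libraries, by 9.36 ± 10.1 points (SD, n = 6, exact permutation, adjusted p = 0.0391). The gain was 18.2, 11.1 and 0.997 points in the insulin libraries and 23.9, 0.789 and 1.09 points in the Torin1 libraries, so it was large only in the libraries with many reads per site. At 30 to 99 reads the median fraction was 0.0377 for dense and 0.0435 for other insulin sites, and 0.0294 and 0.0345 for Torin1 sites, and the part of depth in the difference beyond these classes was not tested.

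Dense sites lay near the end of their gene more often in each library taken whole, but within 3 of 4 read classes of the insulin list less often. Sites at most 2000 nt before the gene's annotated end made up 37.3%, 35.3% and 34.2% of dense sites in insulin replicates 1, 2 and 3 against 34.2%, 32.2% and 32.8% of other sites, and 44.4%, 48.4% and 46.6% in the Torin1 replicates against 34.6%, 30.3% and 34.1%. It was higher in 6 of 6 libraries, by 8.01 ± 6.59 points (SD, n = 6, exact permutation, adjusted p = 0.0391), with insulin differences of 1.42 to 3.11 points and Torin1 differences of 9.83 to 18.1 points. Among insulin sites the share was lower for dense sites at 1 to 9 reads (29.4% against 30.7%) and at 10 to 29 reads (32.5% against 34.8%), and at 100 or more reads it was 51.7% against 50.2%. Among Torin1 sites it was higher for dense sites at 1 to 9 reads (45.6% against 29.8%) and 10 to 29 reads (39.4% against 33.9%), and at 100 or more it was 50.2% against 49.4%. With 30 to 99 reads 37.0% of dense and 39.9% of other insulin sites lay near the end, and 39.0% and 40.2% of Torin1 sites. Without Torin1 replicate 1 the difference was 2.54 points over the 3 insulin libraries.

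**Figure D4:**
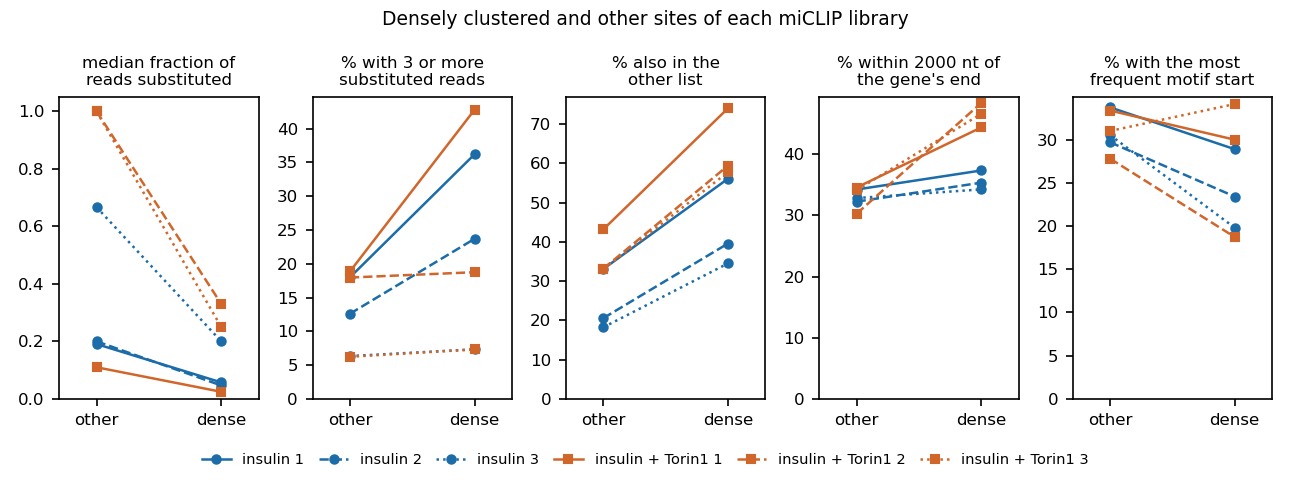
Each panel gives 1 measure for the other and the dense sites of each of the 6 miCLIP libraries, joined by a line (insulin circles, Torin1 squares; replicates 1, 2 and 3 solid, dashed and dotted). The fraction falls and the middle 3 measures rise in 6 of 6 libraries, while the share of the motif start GGAC falls in 5 of 6.

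Motifs starting GGAC, the form usually methylated most strongly, were less common among dense sites in 5 of 6 libraries. The mean difference was 5.20 ± 4.89 points (SD, n = 6, exact permutation, adjusted p = 0.0625, not under 0.05). As for the other measures, this p-value is description only. The shares for dense sites were 28.9%, 23.4% and 19.8% in insulin replicates 1, 2 and 3 and 30.0%, 18.8% and 34.1% in the Torin1 replicates, against 33.8%, 29.7%, 30.6%, 33.4%, 27.8% and 31.0% for the other sites. At 30 to 99 reads the shares were 29.5% for dense and 35.5% for other insulin sites, and 29.7% and 38.2% for Torin1 sites. At 100 or more reads they were 30.3% and 31.0% in the insulin list and 31.5% and 38.5% in the Torin1 list, and at 1 to 9 Torin1 reads dense sites had the higher share, 30.3% against 29.4%. All 18 DRACH motifs occurred among the dense sites of each list. Motifs ending in C were more frequent among dense sites, 21.7% against 17.5% in the insulin list and 21.0% against 16.6% in the Torin1 list, and this held in each of the 6 libraries, by 2.60 to 13.0 points. This last measure was chosen after its values were seen and was not tested.

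Dense sites fell in genes more often than the others did: 95.9% of dense insulin sites and 95.4% of dense Torin1 sites were assigned to 1 RefSeq gene on their strand, against 88.1% and 90.9% of other sites. Exon, intron and UTR limits were not used here. The insulin sites belonged to 1205 genes and the Torin1 sites to 530. The 334 genes in both sets are 27.7% of the first and 63.0% of the second, which leaves 871 genes with dense sites in the insulin list only and 196 in the Torin1 list only. Of the mitochondrial genome's sites 37.0% (74 of 200) were dense in the insulin list and 34.1% (71 of 208) in the Torin1 list, at a median of 205.5 and 361 reads per site.

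The gene with the most dense sites in each list was XIST, with 40 dense insulin and 62 dense Torin1 sites in 7 and 15 clusters. Over all genes, those annotated as long noncoding RNAs held 1.59% of dense and 3.37% of other insulin sites, and 4.40% and 3.90% of Torin1 sites. XIST alone held 40 of the 98 dense insulin sites and 62 of the 98 dense Torin1 sites in such genes, so the higher Torin1 share rests on this gene. TUG1, known as a long noncoding RNA, had 31 and 11 dense sites. The annotation used here lists it as protein-coding, so its sites are not among those 98 of either list. SPEN, whose product binds XIST and represses transcription, had 35 and 22, SON, a scaffold of nuclear speckles, 31 and 13, and MKI67, the proliferation antigen Ki-67, 31 and 2. JUN, a subunit of the transcription factor AP-1, had 31 and 16, CASP8AP2, a gene of histone mRNA processing, 39 and 0, and RNR2 35 and 28. In the Torin1 list EEF2, the translation elongation factor, followed with 23 dense sites (17 in the insulin list), and EME2, FBXL19 and TUBB4B with 16, 14 and 13.

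Of 6 gene lists, chromatin regulators had the largest share of members with dense sites in the insulin list, 11 of 31, and 6 of 31 in the Torin1 list. Nuclear speckle and splicing genes did so in 4 and 5 of 20, mTOR pathway and translation genes in 5 and 4 of 21, and ribosomal protein genes in 1 and 2 of 18. Over all 14909 genes with sites the numbers were 1205 and 530. In the m6A machinery 4 and 6 of 21 genes had dense sites. The adaptor gene RBM15 had 14 dense insulin and 0 dense Torin1 sites, and its paralog RBM15B 8 and 5. WTAP had 2 and 2. Among the YTH reader genes YTHDF1 had 5 and 5, YTHDF3 0 and 5 and YTHDF2 0 and 1, and the RNA-binding protein gene HNRNPA2B1 had 0 and 5. In the MAX network, the partners and competitors of the transcription factor MYC, MYC itself had 0 and 7, MGA 2 and 0 and MLXIP 3 and 0.

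Input expression differed along with the list in which a gene had its dense sites. Expression was tested with limma over 13842 genes, of which 43.4% were higher and 42.5% lower with Torin1 at an adjusted p under 0.05, so most genes were called. Of the genes with dense sites 1355 of 1401 matched a name in the table, and each of these passed the filter on low values. Of these 326 were higher (24.1%) and 916 lower (67.6%), with a median log2 fold change of -0.52, against 0.02 over all tested genes. Of the 849 tested genes dense in the insulin list only, 688 were lower (81.0%) and 96 higher (11.3%), with a median of -0.76. Of the 182 dense in the Torin1 list only, 133 were higher (73.1%) and 28 lower (15.4%), with a median of 0.54. The 324 dense in both lists lay between, with 97 higher and 200 lower and a median of -0.33, and the 10064 with sites but 0 dense had a median of 0.06. These sets are not independent of expression. Reads over a site come from the RNA of the same cells, dense sites had more reads, and a gene dense in 1 list only entered through the condition whose reads gave it that density. The counts therefore describe the sets and support nothing about the clusters, and the part of RNA level in density was not tested. The groups cannot be told apart as fewer cells with an RNA or less of it per cell. With the rule applied to replicate 1 sites alone the medians were -1.02 for genes dense in the insulin list only (212 tested) and 0.30 for those in the Torin1 list only (249 tested).

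Genes with dense sites were expressed at a higher level than most, with a median of 10.2 on the log2 scale of the mean against 8.63 over all tested genes. Most of the genes with dense sites entered through the insulin list, so setting them beside genes of like mean level does not separate level from density. In the top 25% of levels 70.8% of the 804 genes with dense sites were lower with Torin1 (22.6% higher) against 55.8% of the 2498 with sites but 0 dense (35.0% higher). In the next 25% of levels the shares lower were 66.4% of 396 and 44.4% of 2818.

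The genes with the most dense sites in the insulin list only were lower with Torin1 where a value was matched. Of all 849 tested genes dense in that list only, 81.0% were lower and 11.3% higher. Dense sites need reads from the RNA of their condition, so the choice favoured such genes, and the changes and the p-value given here are description only. MAP1B, a microtubule-associated protein gene with 30 dense insulin sites, had input values of 6754, 6434 and 6874 normalized units in insulin replicates 1, 2 and 3 and of 1016, 1054 and 1008 in the Torin1 replicates. The groups did not overlap, and the log2 fold change was -2.70 ± 0.04 (SE, limma, adjusted p = 9.24e-25). MAP1B had 99 sites of any kind in the insulin list and 11 in the Torin1 list. HEXIM1, whose product holds the elongation factor P-TEFb inactive, had 21 dense sites and values of 4879, 5236 and 4382 against 1152, 1170 and 1202, a log2 fold change of -2.04. ZBTB2 and RLF, both zinc-finger genes with 22 dense sites, and PEAK1, a pseudokinase gene with 28, had log2 fold changes of -2.17, -2.08 and -1.69. No value was matched for CASP8AP2, TUG1, XIST or RNR2.

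Of the named genes dense in the Torin1 list only, 8 rose and 2 fell. Among all 182 tested genes dense in that list only, 73.1% were higher and 15.4% lower. Their dense sites need reads from the RNA of the Torin1 condition, so the changes and the p-value given here are description only. MYC had 363, 295 and 358 units with insulin and 1293, 1249 and 1333 with Torin1, without overlap, a log2 fold change of 1.93 ± 0.07 (SE, limma, adjusted p = 6.33e-18), and 9 sites of any kind in the insulin list against 21 in the Torin1 list. C5orf24 had 11 dense sites and rose by 0.77 on the log2 scale. ASXL1, a Polycomb-associated gene, B4GALT2, a galactosyltransferase gene, BTBD6, TTC4 and WDR5, a core subunit of the MLL methyltransferase complexes, had 8 dense sites each and log2 fold changes of 0.60, 1.21, 1.49, 1.42 and 0.17. TTC4 lay near the filter value of 10, at 7, 12 and 18 units with insulin and 37, 32 and 29 with Torin1. Its log2 fold change was 1.03 when 8 was added before the logarithm, although its dense sites had a median of 133.5 reads. HNRNPA2B1 rose by 0.88, whereas YTHDF2 and YTHDF3, with dense sites in the Torin1 list only, had log2 fold changes of -0.85 and -0.28; the call of YTHDF3 was lost with quantile normalization.

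Genes with large clusters in both lists moved either way. FBXL19 had 2757, 2585 and 2794 units with insulin and 2010, 2076 and 2060 with Torin1, a log2 fold change of -0.40, and kept 13 dense positions. TUBB4B and EME2 had log2 fold changes of -0.93 and -0.46, and EEF2 and SPEN of 0.50 and 0.36. HSPA13 was at 3047, 2959 and 3164 units with insulin and 3046, 3075 and 2965 with Torin1, overlapping groups with a log2 fold change of -0.01 (limma, adjusted p = 0.734), and had 8 dense insulin and 13 dense Torin1 sites. Scaled to equal totals or quantile normalized, HSPA13 was called higher with Torin1, at 0.11 and 0.30 on the log2 scale. With quantile normalization the calls of EEF2, DIDO1, RBM15B and MLXIP were lost and that of CYTB turned, and with equal totals the call of SON was lost. Quantile normalization also moved the log2 fold changes of FBXL19, EME2, WDR5 and WTAP to -0.10, -0.15, 0.45 and 0.74, with their calls kept, and equal totals moved that of WDR5 to 0.30.

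Of 12 tested chromatin regulators with dense sites 8 fell and 4 rose, near the 67.6% lower and 24.1% higher among all genes with dense sites. They include, picked after their values were seen, KMT2C, a histone methyltransferase gene with 11 dense insulin and 0 dense Torin1 sites, with a log2 fold change of -1.95, and ARID1B, a chromatin remodelling gene with 0 and 5, with 1.18. TSC1, whose product restrains mTOR complex signalling, was picked in the same way. It had 28 dense insulin and 5 dense Torin1 sites and fell from 14157, 14758 and 13970 units to 1763, 1714 and 1747, a log2 fold change of -3.04 (SE 0.03, limma, adjusted p = 1.17e-26). Among the 7 m6A machinery genes with dense sites 2 rose and 5 fell, again near those shares, with log2 fold changes of -1.59 for RBM15 and 0.47 for WTAP. The 3 ribosomal protein genes with dense sites, RPL3, RPL13 and RPS3, rose by 1.65, 0.99 and 1.00, as did 16 of the 17 tested members of that list.

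**Figure D5:**
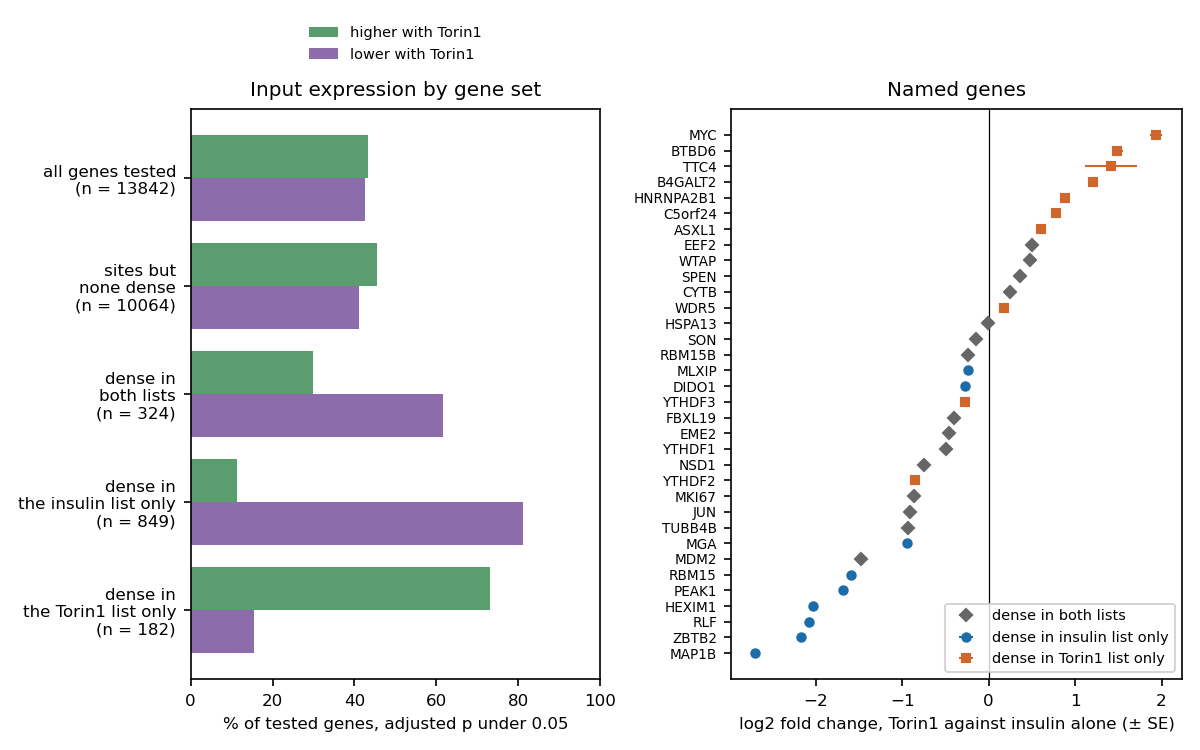
Left, percent of tested genes called higher or lower in the input with Torin1 (limma, adjusted p under 0.05) by where the gene had dense sites; right, log2 fold change ± SE of the named genes with a value. Of genes dense in the insulin list only 81.0% were lower, and of those dense in the Torin1 list only 73.1% were higher, against 42.5% and 43.4% of all tested genes.

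Across the series, the input libraries summed to between 12424643 and 12528454 normalized units for insulin alone and between 11418114 and 11438881 for Torin1. Of the marker genes, LHX1 of embryonic kidney was at 131 to 153 units and the intermediate filament gene VIM at 2858 to 7935, while PAX2 was at 6 to 11. The blood marker PTPRC was at 0 or 1 unit, DCN of fibroblasts at 0 or 1 and the hepatocyte marker ALB at 5 to 10. CD14 read 85 to 95 units under insulin alone but 0 to 6 under Torin1, and VIM was higher under Torin1. The part of such genes in the results above was not tested.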

How the data were processed

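Per the labels, miCLIP and poly(A) input libraries were made from 2 conditions with 3 replicates each. The submitters' processing notes name hg38, BWA 0.7.1, STAR, DESeq and DESeq2 1.22.2 without their steps; the site caller is not given in the sources used here. The authors deposited, for each m6A site, the fraction of reads substituted, with the read numbers and a 5-base motif in its name. The input table that the authors deposited was normalized and rounded, so it was used as a score, not as counts, and its depth was not used here.

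All sites were DRACH, and each position was listed under 1 replicate. Motifs matched RefSeq promoter sequence (GRCh38.p14) at 2419 of 2419 insulin and 1205 of 1205 Torin1 sites. A site took the gene (RefSeq) whose body held it on its strand; the strand came from the promoter table, or for 18.2% and 18.9% of assigned sites from most sites of the gene. Counting used Python 3.11.15 with pandas 2.3.3 and scipy 1.17.1. Shares have 95% Wilson intervals. A library entered the permutation test with at least 10 dense sites. The limma fit (version 3.58.1, R 4.3.3) took log2(value + 1), let the variance follow the mean, and kept genes at 10 or more in at least 3 libraries. Fold changes on this scale understate the change of low genes. Symbols matched directly or by a unique synonym for 17007 of 17520 table genes. Procedures were tested on simulated data.

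The members, lists and tests were chosen with earlier results of these data known. Named were the 8 genes per list with the most dense sites, the 6 per list with dense sites there only, the 5 largest clusters per list, the 5 with most positions dense in both, and m6A machinery and MAX network genes with dense sites; list members and WDR6 and NUDT19-DT were added for description. Replicate numbers did not pair the input libraries (correlations of deviations -0.023 to 0.0097).

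One marker gene is not reported here.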

Additional observations from a re-analysis of the deposited data

How the results depend on the processing

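The mean of the 5 library comparisons kept its sign under each alternative in which they were run (not sharing within 5 nt or replicate 1 alone). For 4 of these comparisons the adjusted p of the permutation test was under 0.05 only with all 6 libraries. Since the libraries are not independent, these p-values remain description only. The alternatives left 3 to 5 libraries with 10 dense sites, and 5 cannot give a p below 0.0625; the adjusted p was higher still, 0.25 and 0.375, for near-end sites with a window of 50 nt and without insulin replicate 1, and 0.25 for strong sites with at least 6 others. Counts below are for the insulin and Torin1 lists in that order. With a window of 50 nt there were 911 and 367 dense sites in 344 and 127 clusters, 51.9% of the insulin ones were shared, and the differences were -0.351 in fraction and 14.3, 19.0 and 4.87 points in strongly substituted, shared and near-end sites. With at least 6 other sites there were 1051 and 348 sites in 297 and 101 clusters, 54.4% and 75.3% shared, and -0.347 and 11.3, 23.1 and 7.17 points; the genes with such clusters had 56 rises and 209 falls. With at least 2 substituted reads there were 806 and 467 sites in 251 and 149 clusters, 48.3% and 63.8% shared, and -0.204 and 18.1, 18.5 and 4.56 points. Sharing within 5 nt gave 52.5% and 75.2%. With replicate 1 sites alone, an alternative chosen after seeing the data, there were 1490 and 1719 sites, the insulin ones in 433 clusters, 58.4% and 55.3% were shared, and 192 genes were higher and 371 lower.

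Leaving out 1 replicate gave 148 to 5384 insulin sites in 57 to 1443 clusters and 0 to 2117 Torin1 sites in 0 to 609 clusters, with 3.58% to 60.1% and 20.3% to 74.9% shared; without Torin1 replicate 1 the last share could not be formed. The differences ranged from -0.425 to -0.251 in fraction, 7.85 to 11.8 points in strong sites, 1.09 to 24.95 in shared sites, 2.54 to 9.43 near the end and -7.29 to -2.46 in GGAC. Genes with dense sites numbered 307 to 321 higher and 900 to 920 lower without 1 input library, and with the replicate block, as the numbers do not pair the samples, 321 and 914 against 326 and 916. Scaled to equal totals, 388 genes with dense sites were higher and 857 lower (6680 and 5245 of all genes tested). Quantile normalization gave 395 and 843 (5847 and 5894 of all genes tested). Equal totals shifted the median of all genes to 0.15. Of 374 values of named genes 365 kept their call, and also their direction where the gene had been called. HSPA13, which was not called, went from a log2 fold change of -0.0129 to 0.0123 without insulin input replicate 3. Without Torin1 input replicate 3 it was at 0.00233. Under quantile normalization the log2 fold changes of CYTB, DIDO1 and RBM15B were -0.0702, 0.0342 and 0.0197.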
